A study of Homo sapiens with 6 samples.

Results

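The genes described here are 10 members of the bone morphogenetic protein (BMP) pathway, chosen by name: 5 secreted ligands (BMP2, BMP4, BMP6, BMP7 and GDF7), 2 secreted antagonists (NOG and GREM1) and 3 receptors (BMPR1A, BMPR1B and BMPR2). They were taken, with earlier results of these data known, from 27439 genes with reads, of which 15984 were abundant enough to test. Of the 10 members, 9 were tested. The samples are astrocytes derived from H1, an established human embryonic stem cell line, in 2 groups of 3 libraries: ventral midbrain (VM iAst) and control, which the labels call forebrain (Control iAst). Replicates are numbered 2, 3 and 4 in both groups. The main fit does not use these numbers. A fit with the replicate number as a block is given as an alternative, and its p-values rest on a pairing inferred from these same libraries. All samples come from the same line, and the labels give neither the factors used for patterning nor whether the libraries came from separate cultures, so a p-value speaks for the variation among these libraries, which may be technical. The RNA was read at the 3' end of polyadenylated transcripts, and levels are given as CPM (reads scaled to library size, with TMM factors).

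A BMP ligand binds as a dimer to a complex of type I receptors (BMPR1A and BMPR1B) and a type II receptor (BMPR2). The type II receptor activates the type I receptor, which phosphorylates SMAD1, SMAD5 and SMAD9. These move to the nucleus with SMAD4 and switch on targets such as the ID genes, while antagonists such as noggin (NOG) and gremlin (GREM1) trap the ligand outside the cell. BMP2 and BMP4 are close relatives, BMP6 and BMP7 belong to another branch, and GDF7 is known from the roof plate of the neural tube in mouse. BMP signals pattern the dorsal neural tube and favour the astrocyte fate in neural progenitors.

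The libraries held 11617935 to 15391082 estimated reads. All 9 astrocyte markers had reads, their summed level being 580.0 to 1020 CPM in ventral midbrain and 695 to 833 CPM in control libraries, with GFAP at 371 CPM in ventral midbrain and 362 CPM in control libraries. Of the 9 astrocyte markers 2 rose, AQP4 7.86-fold and SLC1A3 2.67-fold (edgeR adjusted p = 0.048 and 0.034), and each call held in 2 of the 6 fits that left out 1 library. With the replicate number as a block, GJA1 and SOX9 were lower (edgeR adjusted p = 0.0079 and 0.030). The 7 mesenchymal markers summed to 266 to 345 CPM in ventral midbrain and 716.5 to 1148 CPM in control libraries, a sum made up mostly of COL1A1. In that list COL1A1, COL3A1 and PRRX1 fell, COL3A1 with a call that held in 2 of the 6 fits without 1 library, while DCN and LUM had higher levels in ventral midbrain without overlap (log2 fold changes 2.11 and 2.37; edgeR adjusted p = 0.29 and 0.30) and PDGFRB differed by -0.16 (edgeR adjusted p = 0.90). DCN had 2 to 34 reads per library and LUM 0 to 47. TWIST1 was lower without overlap, short of the threshold in the main fit (log2 fold change -2.68, edgeR adjusted p = 0.052) and past it with the block (edgeR adjusted p = 0.014). The 6 neuron markers summed to 453 to 903 CPM in ventral midbrain and 969.7 to 1796 CPM in control libraries, a sum made up mostly of STMN2 and TUBB3. None passed the test unless blocked, where STMN2 and DCX were lower (edgeR adjusted p = 0.0091 and 0.0034). The groups overlapped for TUBB3, SYT1 and SNAP25, with means of 231, 21.3 and 21.2 CPM in ventral midbrain and 226, 17.7 and 20.6 CPM in control libraries. The 4 choroid plexus and ependyma markers summed to 67.3 to 104 CPM in ventral midbrain and 37.7 to 56.8 CPM in control libraries, and TTR was at 0 in every library. None passed without the block, while with it FOXJ1 was higher and KRT18 lower (edgeR adjusted p = 0.0013 and 0.0021). The 5 roof plate markers summed to 35.0 to 44.1 CPM in ventral midbrain and 26.7 to 41.3 CPM in control libraries, a sum made up mostly of MSX1. In that list WNT1 was higher in ventral midbrain without overlap, at 33, 28 and 41 reads against 1, 9 and 5 (edgeR adjusted p = 0.16, blocked adjusted p = 0.053). The groups overlapped for LMX1A, MSX1, WNT3A and RSPO1, and none of the list passed. The 3 pluripotency markers stayed under 2 CPM in each library. In bulk RNA, fewer cells of a type and less RNA per cell cannot be told apart. The part of these cell mixtures in the results below was not tested.

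The balance of BMP ligands differed between the groups. BMP2 was 6.23-fold higher in ventral midbrain astrocytes, where it held most of the ligand reads, whereas BMP7 was 5.88-fold and BMP6 3.84-fold lower. BMP4, the most abundant ligand in 2 of the 3 control libraries, did not pass the test. Of the 9 members tested, 1 rose and 2 fell (edgeR quasi-likelihood test, Benjamini-Hochberg adjusted p under 0.05), against 1.06% of all genes higher, 1.09% lower and 2.15% in either direction. Since the members were chosen with earlier results of these data known, this and the shares that follow are descriptions and no test of enrichment. DESeq2 called 3 members higher (BMP2, NOG and BMPR1A) and 2 lower, against 2.21% of all genes higher, 2.67% lower and 4.88% in either direction. With voom 2 members were higher (BMP2 and NOG) and 2 lower, against 1.01%, 1.09% and 2.1% of all genes. With limma on the authors' deposited table the counts were also 2 and 2, against 0.543%, 0.614% and 1.16% of all genes. The CPM of the 2 groups did not overlap for 5 members (BMP2, BMP6, BMP7, NOG and BMPR1A), and for 17.9% of all genes tested.

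**Figure D1:**
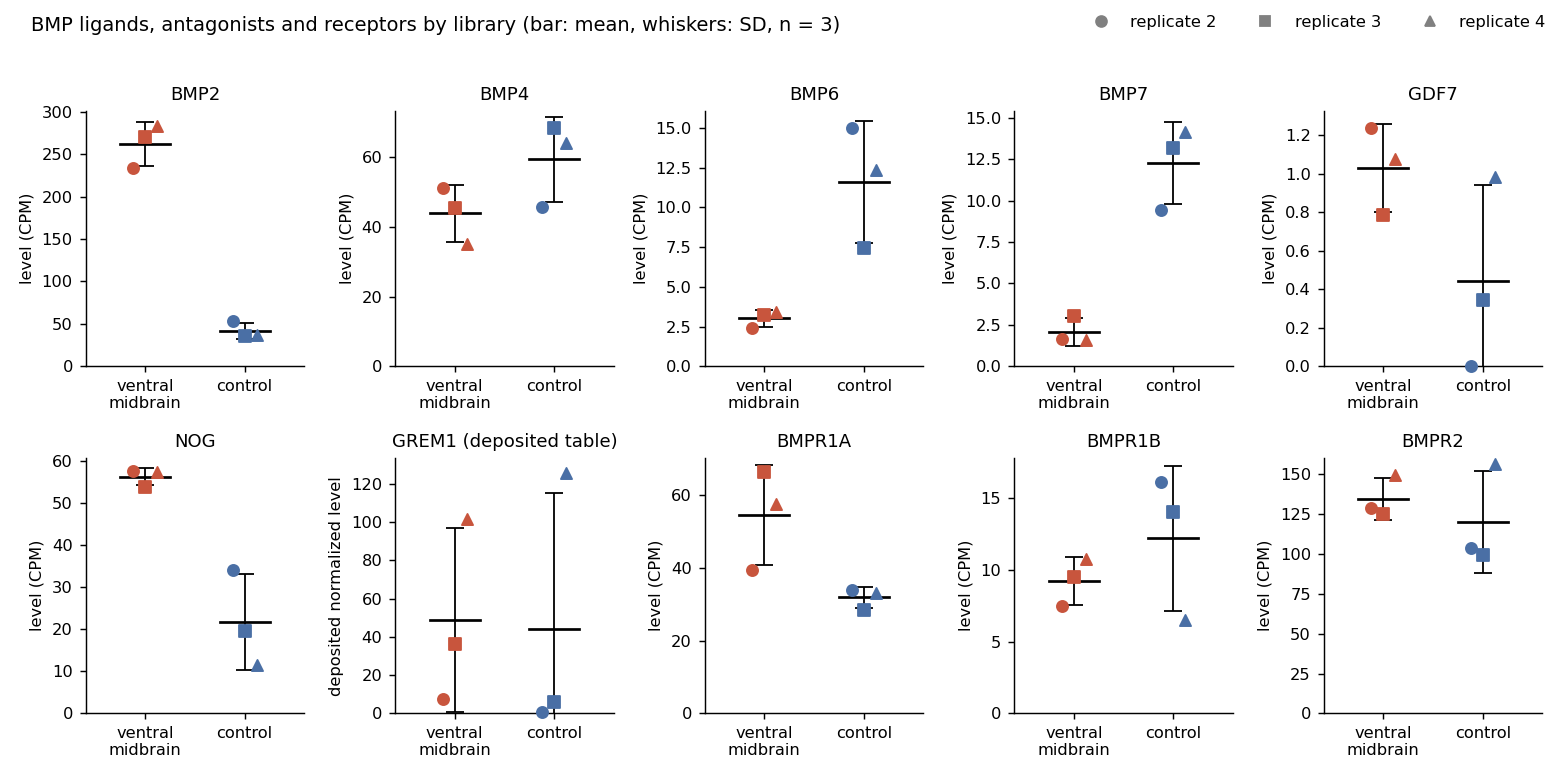
Level of each of the 10 genes in every library, in CPM, or for GREM1 in the authors' deposited normalized level; the ventral midbrain group is left of control, symbols mark the replicate number, horizontal bars the mean and whiskers the SD (n = 3, lower whiskers end at 0). BMP2 lies at 233 to 284 CPM in ventral midbrain and 36.2 to 53.0 CPM in control libraries, and BMP6 and BMP7 lie the other way round without overlap.

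BMP2, a ligand first known for inducing bone (chromosome 20, 6767664 to 6780280, GRCh38, plus strand), was at 233, 269.8 and 284 CPM in ventral midbrain replicates 2, 3 and 4, against 53.0, 36.2 and 37.0 CPM in control replicates 2, 3 and 4. Every ventral midbrain library stood far above every control library. The log2 fold change was 2.64 ± 0.19 (SE; edgeR adjusted p = 0.000196), and the call held in each of the 6 fits that left out 1 library (highest adjusted p = 0.0039). Within each replicate number the log2 ratio of ventral midbrain to control was 2.14, 2.90 and 2.94. The reads came from a single annotated transcript, and no other annotated gene overlaps BMP2.

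BMP7, a ligand of the BMP6 branch (chromosome 20, 57168748 to 57266629, minus strand), was at 1.63, 3.06 and 1.58 CPM in ventral midbrain replicates 2, 3 and 4, against 9.44, 13.2 and 14.1 CPM in control replicates. The highest ventral midbrain library lay below the lowest control library. The log2 fold change was -2.56 ± 0.37 (SE; edgeR adjusted p = 0.0059), and the call held in all 6 fits without 1 library (highest adjusted p = 0.035). Of its 9 annotated transcripts, BMP7-201 took 99.3% of the reads, and its antisense partner BMP7-AS1 had 0 reads in every library.

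BMP6, its close relative (chromosome 6, 7726797 to 7881422, plus strand), was at 2.41, 3.21 and 3.44 CPM in ventral midbrain replicates 2, 3 and 4, against 14.996, 7.44 and 12.3 CPM in control replicates. The groups did not overlap, but the control libraries spread over a wider range. BMP6 fell by 1.94 on the log2 scale, with an SE of 0.35 (edgeR adjusted p = 0.018). The call was lost without ventral midbrain replicate 2 or 4 or control replicate 2 or 4 (adjusted p = 0.058 to 0.081), while the log2 fold change in the 6 such fits stayed between -2.18 and -1.71. Of the mesenchymal markers given above, COL1A1, COL3A1 and PRRX1 fell with BMP6 and BMP7, and TWIST1 was lower without passing the main fit. DCN and LUM, which had few reads, were not lower, and the groups overlapped for PDGFRB. The part of these markers in the results was not tested.

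BMP4 (chromosome 14, 53949736 to 53958761, minus strand) was at 51.2, 45.3 and 35.0 CPM in ventral midbrain replicates 2, 3 and 4, against 45.6, 68.4 and 63.9 CPM in control replicates. The groups overlapped, since control replicate 2 lay below ventral midbrain replicate 2. The log2 fold change was -0.43 ± 0.20 (SE; edgeR adjusted p = 0.43), and the ratio within replicate numbers differed in sign, at 0.17, -0.59 and -0.87. Of its 9 transcripts, BMP4-206 took 99.4% of the reads.

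GDF7 (chromosome 2, 20666664 to 20679245, plus strand) was close to the limit of detection. It had 19, 10 and 15 reads in ventral midbrain replicates 2, 3 and 4, against 0, 4 and 13 reads in control replicates. The groups overlapped in CPM, and its difference of 1.21 on the log2 scale had an SE of 1.04 (edgeR adjusted p = 0.75). That difference was 0.62 without control replicate 2, 2.58 without control replicate 4 and 2.17 with voom, short of the threshold in each. A noncoding gene on the opposite strand, AC012065.4, overlaps GDF7 and had 3 to 14 reads per library. Whether any reads were assigned to the wrong gene of the pair was not tested.

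**Figure D2:**
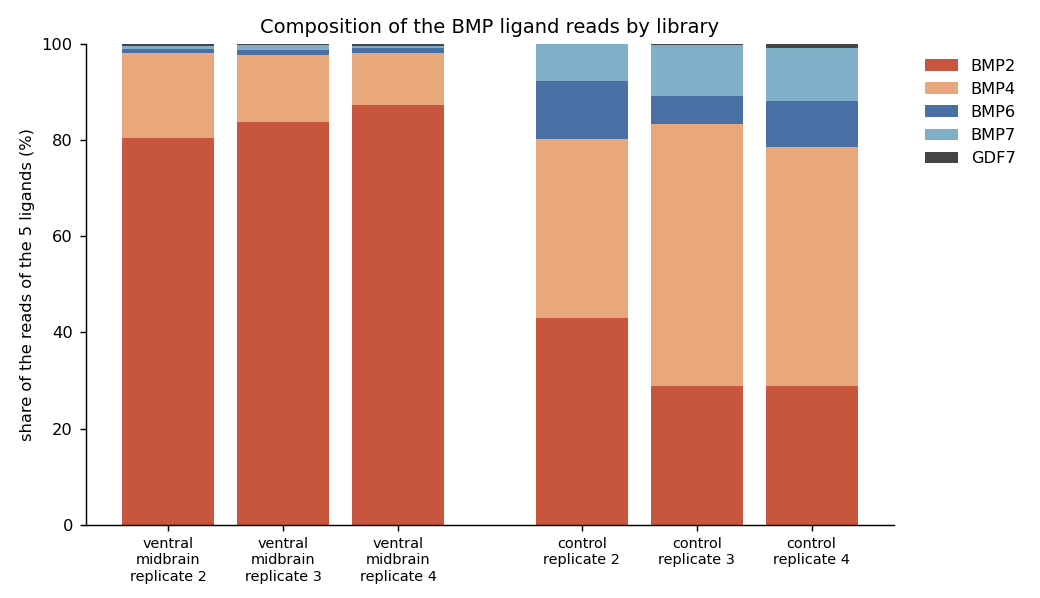
Share of each of the 5 ligands in their summed reads, in percent, for the 3 ventral midbrain and the 3 control libraries. BMP2 makes up 80.5% to 87.3% in ventral midbrain and 28.8% to 43.1% in control libraries.

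Taking the 5 ligands together, their summed level was 289.8, 322 and 325 CPM in ventral midbrain replicates 2, 3 and 4, against 123, 126 and 128 CPM in control replicates. These sums and the shares that follow are descriptions of the libraries and were given no test. BMP2 made up 83.9% ± 3.41 (SD, n = 3) of the ligand reads in ventral midbrain and 33.6% ± 8.22 (SD, n = 3) in control libraries. BMP4 made up 14.2% ± 3.44 in ventral midbrain and 47.1% ± 9.01 in control libraries. BMP6 and BMP7 contributed 0.962% ± 0.119 and 0.665% ± 0.249 in ventral midbrain, against 9.24% ± 3.15 and 9.73% ± 1.80 in control libraries. The branch of BMP6 and BMP7 thus made up a far smaller part of the ligand reads in ventral midbrain libraries. There were 144, 88.2 and 180.0 BMP2 reads per BMP7 read in ventral midbrain replicates, against 5.61, 2.75 and 2.61 in control replicates. The ventral midbrain ratios are imprecise, since BMP7 had 25, 39 and 22 reads in ventral midbrain replicates 2, 3 and 4. The order of BMP2 and BMP4 differed between the groups too, with 4.56, 5.95 and 8.10 BMP2 reads per BMP4 read in ventral midbrain replicates and 1.16, 0.529 and 0.579 in control replicates. Control replicate 2 was thus the single control library with more BMP2 than BMP4 reads. The summed level of BMP2 and BMP4 was 306 ± 18.7 CPM in ventral midbrain and 101 ± 3.04 CPM in control libraries (SD, n = 3), and that of BMP6 and BMP7 was 5.11 ± 1.12 CPM in ventral midbrain and 23.8 ± 2.97 CPM in control libraries (SD, n = 3).

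Levels of different genes were compared per length, as summed TPM, and the order by reads differs for long transcripts. Since a transcript gives reads at its 3' end whatever its length, this scale understates long transcripts. In ventral midbrain libraries BMP2 stood first at 37.1 ± 6.46 TPM (SD, n = 3), above NOG at 14.5 ± 1.36 TPM, with no overlap between their libraries. By reads, on the CPM scale, BMPR2 at 134 ± 13.3 CPM stood second and above NOG at 56.3 ± 2.06 CPM (SD, n = 3), without overlap. On the TPM scale BMPR2 followed at 6.37 ± 0.596 TPM and BMP4 at 5.94 ± 0.977 TPM, and these did not differ beyond their spread. BMPR1A was at 2.05 ± 0.728, BMPR1B at 0.668 ± 0.0629, BMP6 at 0.452 ± 0.108, BMP7 at 0.308 ± 0.113 and GDF7 at 0.0757 ± 0.0215 TPM, where the libraries of BMP6 and BMP7 overlapped and those of the other neighbours did not. Counted in reads, BMPR1A at 54.4 ± 13.7 CPM overlapped both BMP4 at 43.9 ± 8.20 CPM and NOG (SD, n = 3). In control libraries the first 4 lay within each other's range, with BMP4 at 7.58 ± 3.32, BMP2 at 5.54 ± 1.12, NOG at 5.02 ± 2.31 and BMPR2 at 4.93 ± 0.924 TPM. By reads BMPR2 came first in control libraries, at 99.1 to 157 CPM, clear of BMP4 at 45.6 to 68.4 CPM. BMP7 at 1.68 ± 0.494 and BMP6 at 1.55 ± 0.352 TPM overlapped as well, as did BMPR1A at 0.957 ± 0.0495 and BMPR1B at 0.894 ± 0.485 TPM, and BMPR1B reached into the range of BMP6 and BMP7. Counted in reads, BMPR1A at 28.5 to 33.8 CPM lay above BMP6 at 7.44 to 14.996 CPM and BMP7 at 9.44 to 14.1 CPM in control libraries. GDF7 was last at 0.0282 ± 0.0289 TPM, and GREM1 is left out of this order because its transcript sums fall short of the deposited gene level.

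RefSeq promoter windows (GRCh38.p14, 250 bases before to 50 after a start listed for the gene) were matched for 7 of the 10 members, and BMP2, BMP7 and NOG have no entry in the table used. The windows of BMP6, the ligand with an entry that fell, and of BMP4, which did not pass, are shown to set a pair of ligands side by side, with that of the receptor BMPR1A. Capitals mark matches on either strand to GGCGCC, a motif known for binding SMAD1 and SMAD5, and to CAGAC, a motif known for binding SMAD proteins. All are written 5' to 3' on the gene's strand, at chr6:7725849-7726148 (plus) for BMP6, chr14:53955001-53955300 (minus, the outermost of 3 entries) for BMP4 and chr10:86755513-86755812 (plus) for BMPR1A.
BMP6: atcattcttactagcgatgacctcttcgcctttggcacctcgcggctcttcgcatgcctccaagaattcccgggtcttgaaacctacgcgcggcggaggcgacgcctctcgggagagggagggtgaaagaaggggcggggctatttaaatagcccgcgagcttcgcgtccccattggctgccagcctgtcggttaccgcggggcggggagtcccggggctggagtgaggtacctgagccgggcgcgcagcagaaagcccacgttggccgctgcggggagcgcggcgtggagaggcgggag
BMP4: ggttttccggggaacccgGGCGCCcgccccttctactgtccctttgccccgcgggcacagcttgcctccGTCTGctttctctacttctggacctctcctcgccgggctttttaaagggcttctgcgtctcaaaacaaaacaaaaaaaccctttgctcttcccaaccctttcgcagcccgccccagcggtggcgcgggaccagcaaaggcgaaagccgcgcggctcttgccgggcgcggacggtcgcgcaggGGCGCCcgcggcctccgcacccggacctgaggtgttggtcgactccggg
BMPR1A: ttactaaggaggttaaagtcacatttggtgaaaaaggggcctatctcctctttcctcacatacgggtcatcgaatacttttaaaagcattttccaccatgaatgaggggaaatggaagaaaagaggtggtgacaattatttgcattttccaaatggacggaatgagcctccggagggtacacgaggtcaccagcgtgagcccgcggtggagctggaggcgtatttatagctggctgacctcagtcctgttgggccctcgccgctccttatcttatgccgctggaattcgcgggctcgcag
The BMP4 window held 2 matches to GGCGCC and 1 to CAGAC, and the BMP6 and BMPR1A windows held 0 of either. Over all 12 windows of the 7 members, 4 held GGCGCC and 7 held CAGAC, against 19.2% and 45.3% of 35116 windows in the table. The GC content was 66.0% for BMP6, 66.0% for BMP4 and 50.3% for BMPR1A, with a median of 58.7% over the table. A match is a description of the letters, and a 3' end library does not measure which start a transcript used. The listed starts also differ from those of the annotation used for the reads. There BMP6 starts at 7726797 and BMPR1A at 86756601, both past the end of their windows. BMP4-206, which took most BMP4 reads, starts at 53956811, outside the window shown.

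The antagonist NOG was higher in every ventral midbrain library, without passing the edgeR test. NOG (chromosome 17, 56593699 to 56595590, plus strand), which binds BMP2, BMP4 and, less tightly, BMP7, was at 57.7, 53.9 and 57.4 CPM in ventral midbrain replicates 2, 3 and 4, against 34.2, 19.6 and 11.5 CPM in control replicates. The ventral midbrain libraries lay close together, while the control libraries lay below them and further apart. The log2 fold change was 1.37 ± 0.34 (SE; edgeR adjusted p = 0.096). With the replicate number as a block it was 1.49 ± 0.27 (SE; blocked adjusted p = 0.016, from edgeR). The blocked fit called 3 members higher and 2 lower, against 3.63% of all genes higher, 4.5% lower and 8.13% in either direction. With no block, NOG passed in 1 of the 6 fits that left out 1 library, the fit without control replicate 2 (edgeR adjusted p = 0.013). The other such fits gave edgeR adjusted p of 0.12 to 0.27. The ratio within replicate numbers was positive in each, at 0.75, 1.46 and 2.32 on the log2 scale. Relative to the ligands, there were 0.199, 0.167 and 0.177 NOG reads per ligand read in ventral midbrain replicates, against 0.278, 0.156 and 0.0896 in control replicates, so that the ventral midbrain values lay inside the control range.

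GREM1 (chromosome 15, 32717974 to 32745107, plus strand), another secreted antagonist, could not be measured from the transcript sums. The annotation used holds 3 GREM1 transcripts, of which 2 are in the deposited files and end at or before position 32733302, and these took 0, 0 and 6.1 reads in ventral midbrain replicates, against 0, 0 and 7.8 reads in control replicates. The authors' deposited table of normalized gene signal held 20.3 times the level that these sums imply, whereas for the other 9 members it was 0.991 to 1.04 times the sums. In the authors' deposited table GREM1 was at 7.77, 36.5 and 101.6 in ventral midbrain replicates 2, 3 and 4, against 0.786, 5.90 and 126 in control replicates. In both groups replicate 4 was highest and replicate 2 lowest, and the groups overlapped almost fully. On log2(value + 1), the log2 fold change was 1.48 ± 1.63 (SE; limma adjusted p = 0.85). It was 0.13 without control replicate 2, 0.64 without ventral midbrain replicate 4, 2.42 without ventral midbrain replicate 2, 3.20 without control replicate 4 and 0.66 with a pseudocount of 10, and passed in none of these fits.

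**Figure D3:**
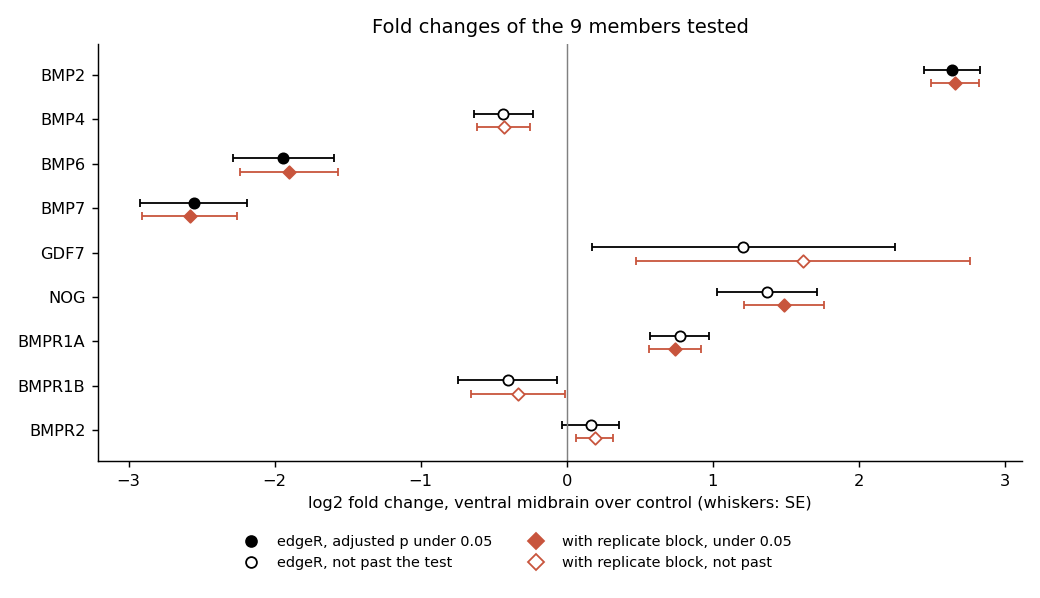
Log2 fold change of ventral midbrain over control for the 9 members tested, with SE as whiskers, from edgeR without (circles) and with (diamonds) the replicate number as a block; filled symbols have an adjusted p under 0.05. BMP2, BMP6 and BMP7 are filled in both fits, and NOG and BMPR1A in the blocked fit alone.

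None of the 3 receptors passed the edgeR test without the block, and BMPR1A passed with it; DESeq2 called BMPR1A, voom called none, and BMPR1A alone had an unadjusted edgeR p under 0.05. BMPR1A (chromosome 10, 86756601 to 86932838, plus strand), the broadly expressed type I receptor, was at 39.4, 66.3 and 57.4 CPM in ventral midbrain replicates 2, 3 and 4, against 33.8, 28.5 and 33.1 CPM in control replicates. The groups did not overlap, although ventral midbrain replicate 2 came close to the control libraries. The log2 fold change was 0.77 ± 0.20 (SE; edgeR adjusted p = 0.093), and 0.74 ± 0.18 in the blocked fit (blocked adjusted p = 0.020).

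BMPR1B (chromosome 4, 94757968 to 95158448, plus strand), the other type I receptor, was at 7.48, 9.49 and 10.7 CPM in ventral midbrain replicates 2, 3 and 4, against 16.1, 14.0 and 6.50 CPM in control replicates. The groups overlapped because control replicate 4 was the lowest of all libraries, and the log2 fold change was -0.40 ± 0.34 (SE; edgeR adjusted p = 0.74). All but 2 reads of ventral midbrain replicate 2 and all of replicate 3 were assigned to transcript BMPR1B-203, while nearly all reads of the other 4 libraries were assigned to BMPR1B-208. Both transcripts end within the same few bases, at 95158441 and 95158448, so 3' end reads cannot tell them apart and the sum alone was used. There were 5.27, 6.99 and 5.34 BMPR1A reads per BMPR1B read in ventral midbrain replicates, against 2.10, 2.03 and 5.09 in control replicates.

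BMPR2 (chromosome 2, 202376936 to 202567751, plus strand), the type II receptor, had the highest receptor level, with 128, 125 and 149.5 CPM in ventral midbrain replicates 2, 3 and 4, against 104, 99.1 and 157 CPM in control replicates. Control replicate 4 was the highest of all libraries, so the groups overlapped, and the log2 fold change was 0.16 ± 0.19 (SE; edgeR adjusted p = 0.84). Transcript BMPR2-201 took 96.6% of its reads. The summed level of the 3 receptors was 198 ± 21.3 CPM in ventral midbrain and 164 ± 28.7 CPM in control libraries (SD, n = 3), a description with no test.

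**Figure D4:**
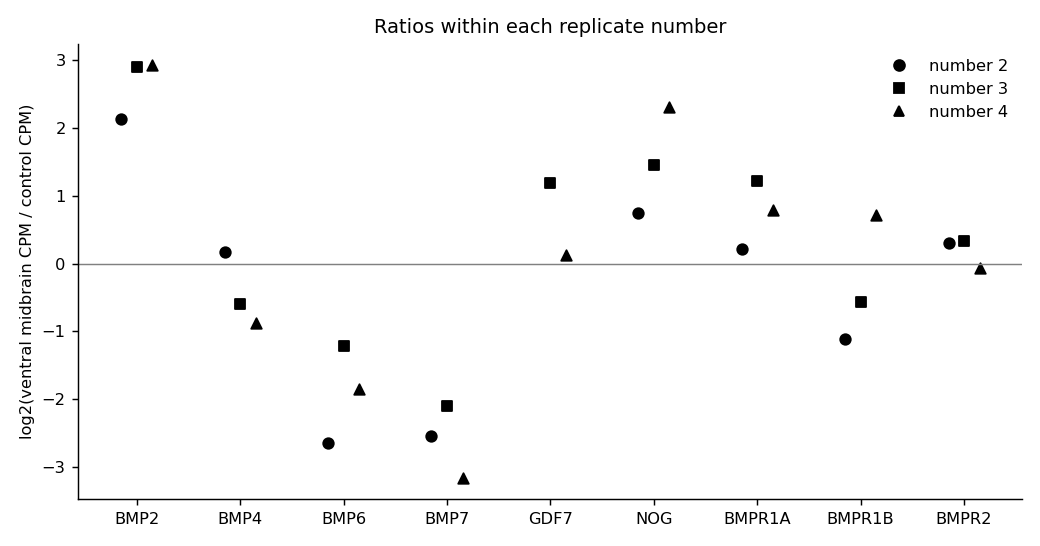
Log2 ratio of ventral midbrain to control CPM within each replicate number, for 9 members; GDF7 has no value for number 2, where control had 0 reads. BMP2, NOG and BMPR1A lie above 0 and BMP6 and BMP7 below 0 in all 3 numbers, while BMP4, BMPR1B and BMPR2 lie on both sides.

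The likeness of other genes to BMP2 and BMP7 was read from 6 libraries as Pearson's r of log2 CPM, a description in which the difference between the groups weighs heavily. Among 11346 protein-coding genes with an average log2 CPM of at least 2, SLC7A2, HEPH and SELENOI came closest to BMP2 (r = 0.996, 0.996 and 0.994). ZNF385D, STK16 and MXRA5 came closest to BMP7 (r = 0.997, 0.997 and 0.995). A high r did not mean a change of like size. The log2 fold change was 0.86 for HEPH and -0.53 for STK16, which did not pass (edgeR adjusted p = 0.24). Between members, r was -0.97 for BMP2 with BMP7, -0.89 for BMP2 with BMP6, 0.89 for BMP6 with BMP7 and 0.90 for BMP2 with NOG.

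The rest of the pathway was read from 7 lists of 63 further genes, chosen with earlier results of these data known. The shares that follow are therefore descriptions and no test of enrichment. Of these, 50 were tested, 5 rose and 2 fell, 14.0% of them against 2.15% of all genes tested, and 10 were higher and 6 lower with the replicate block, against 3.63% and 4.5% of all genes in that fit. The median log2 fold change was 0.14, against 0.01 for all genes tested. The calls lay among the antagonists, the SMAD genes and the targets.

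Of 11 other ligands 4 were tested (BMP5, GDF5, GDF6 and GDF10) and 0 passed. DESeq2 and voom also called 0 of the 4, and 0 had an unadjusted edgeR p under 0.05. GDF10 averaged 5.23 ± 1.53 CPM in ventral midbrain and 8.11 ± 1.59 CPM in control libraries (SD, n = 3; edgeR adjusted p = 0.50), and GDF5 averaged 3.94 ± 2.39 CPM in ventral midbrain and 7.25 ± 3.84 CPM in control libraries (edgeR adjusted p = 0.58). BMP10, BMP15, GDF2 and GDF3 had 0 reads in all libraries and were not detectable at this depth. With all ligands that had reads counted, BMP2 still made up 80.2% ± 2.36 of the reads in ventral midbrain and 29.3% ± 7.78 in control libraries (SD, n = 3).

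Of 18 other secreted antagonists 14 were tested and 1 fell. CHRDL1, a chordin-like protein that binds BMP4, was at 12.5, 9.64 and 10.3 CPM in ventral midbrain replicates 2, 3 and 4, against 28.6, 32.7 and 22.9 CPM in control replicates (log2 fold change -1.37 ± 0.22, SE; edgeR adjusted p = 0.010), and lost the call without ventral midbrain replicate 4 (adjusted p = 0.052). In the blocked fit CHRD, the chordin gene, was higher (edgeR adjusted p = 0.046), and CHRDL2 and FSTL1 were lower with CHRDL1 (edgeR adjusted p = 0.00076 and 0.027). FSTL1, a secreted glycoprotein, was the most abundant gene of the list, at 819 ± 117 CPM in ventral midbrain and 1087 ± 182 CPM in control libraries (SD, n = 3; edgeR adjusted p = 0.41), and CHRDL2 was at 58.3 ± 17.9 CPM in ventral midbrain and 124 ± 70.8 CPM in control libraries (edgeR adjusted p = 0.42). FST, follistatin, named after its values were seen, was at 39.7, 136 and 46.9 CPM in ventral midbrain replicates 2, 3 and 4, against 12.1, 10.95 and 15.4 CPM in control replicates (edgeR adjusted p = 0.089, blocked adjusted p = 0.15). Its groups did not overlap, and ventral midbrain replicate 3 stood well above the other ventral midbrain libraries. Antagonist genes thus stood on both sides, NOG and FST higher and CHRDL1 and CHRDL2 lower in ventral midbrain by their means.

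The other receptors, membrane regulators and proteases gave 0 calls among 16 genes tested. Of these, 4 had an unadjusted edgeR p under 0.05, and 3 passed with DESeq2 (RGMA, RGMB and BAMBI) and 1 with voom (RGMB). Among 4 receptors, ACVR2A, a type II receptor shared with activins, averaged 24.1 ± 3.18 CPM in ventral midbrain and 37.6 ± 3.70 CPM in control libraries (SD, n = 3; edgeR adjusted p = 0.12, blocked adjusted p = 0.018), and ACVR2B averaged 47.2 ± 3.58 CPM in ventral midbrain and 41.8 ± 4.57 CPM in control libraries (edgeR adjusted p = 0.77). Among 6 membrane regulators, the co-receptor RGMA averaged 116 ± 51.7 CPM in ventral midbrain and 49.5 ± 11.4 CPM in control libraries (edgeR adjusted p = 0.22, blocked adjusted p = 0.0061), and NEO1 averaged 134 ± 17.2 CPM in ventral midbrain and 108 ± 11.8 CPM in control libraries (edgeR adjusted p = 0.49). With the block, the pseudoreceptor BAMBI was also higher and the co-receptor RGMB lower (edgeR adjusted p = 0.035 and 0.0022). Among 6 proteases, FURIN, which cleaves BMP precursors, averaged 175 ± 58.2 CPM in ventral midbrain and 128 ± 26.1 CPM in control libraries (edgeR adjusted p = 0.56), and BMP1, a metalloprotease that cleaves chordin and is no BMP ligand, averaged 57.9 ± 16.6 CPM in ventral midbrain and 57.5 ± 14.3 CPM in control libraries (edgeR adjusted p = 0.995).

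**Figure D5:**
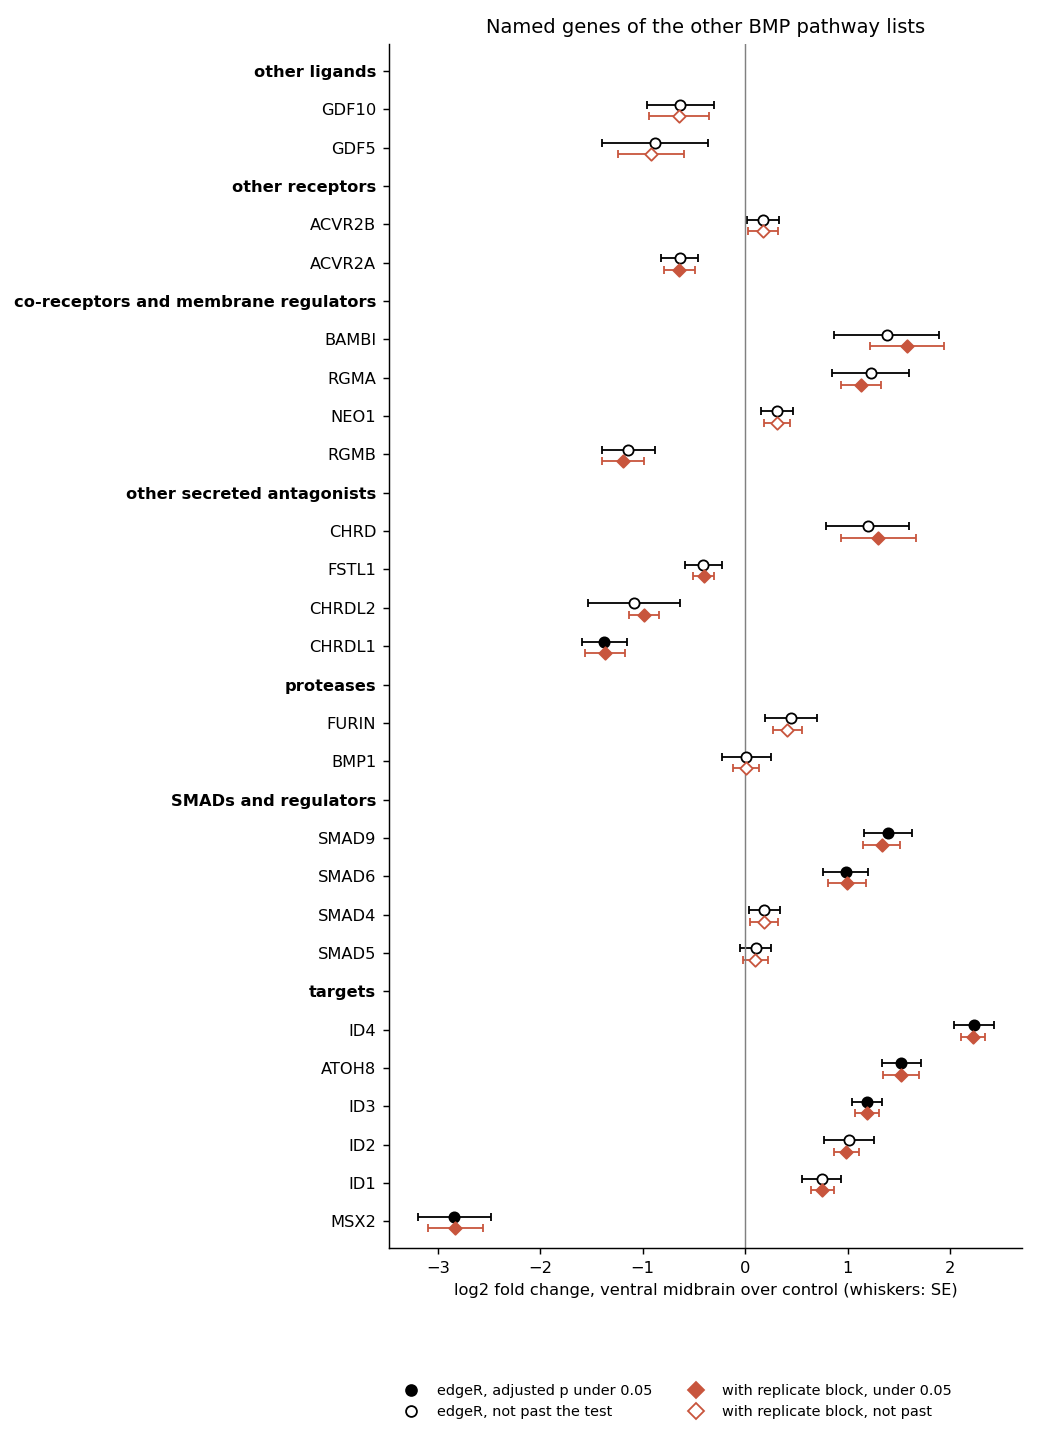
Log2 fold change of ventral midbrain over control, with SE as whiskers, for the genes of the 7 pathway lists that are named by rule or called in either fit; circles are edgeR, diamonds edgeR with the replicate block, and filled symbols have an adjusted p under 0.05. Filled circles lie at CHRDL1, SMAD9, SMAD6 and 4 of the targets.

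Of 8 genes of SMADs and their regulators 2 rose. SMAD9, a receptor-activated SMAD, was at 56.9, 113 and 71.7 CPM in ventral midbrain replicates 2, 3 and 4, against 31.7, 30.1 and 29.9 CPM in control replicates (log2 fold change 1.39 ± 0.23, SE; edgeR adjusted p = 0.015). It lost the call without any 1 of the control libraries (highest adjusted p = 0.082). SMAD6, an inhibitory SMAD, averaged 27.8 ± 3.34 CPM in ventral midbrain and 14.1 ± 2.94 CPM in control libraries (SD, n = 3; edgeR adjusted p = 0.047), a call lost in all 6 fits without 1 library (highest adjusted p = 0.19) and on the deposited values (limma adjusted p = 0.30). SMAD5 averaged 128 ± 13.1 CPM in ventral midbrain and 119 ± 9.15 CPM in control libraries and SMAD4 averaged 44.0 ± 2.87 CPM in ventral midbrain and 38.6 ± 1.997 CPM in control libraries (edgeR adjusted p = 0.88 and 0.72).

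Of 9 targets 8 were tested, 3 rose and 1 fell. ID4, ID3 and ATOH8, genes known to respond to BMP, rose by log2 fold changes of 2.23, 1.19 and 1.53, and MSX2, a homeobox gene that BMP induces in dorsal tissue, fell by 2.84 on the log2 scale (edgeR adjusted p at most 0.0037 for each). All 4 kept their calls in every fit without 1 library. MSX2 was at 1.76, 3.61 and 2.86 CPM in ventral midbrain replicates 2, 3 and 4, against 13.5, 18.2 and 27.0 CPM in control replicates, opposite to the ID genes. The targets MSX1 and HEY1 differed little (log2 fold changes 0.28 and 0.10, edgeR adjusted p = 0.69 and 0.89), and DLX5 had too few reads to test. ID1 and ID2 averaged 655 ± 104 and 398 ± 129 CPM in ventral midbrain, against 390.5 ± 79.9 and 197 ± 39.2 CPM in control libraries (SD, n = 3; edgeR adjusted p = 0.083 and 0.066, blocked adjusted p = 0.000715 and 0.000206).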

How the data were processed

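The 6 libraries are, per the labels, QuantSeq 3' mRNA libraries of polyadenylated RNA, and per the submitters' processing notes Salmon, DESeq2 1.27.12 and GRCh38.p13 were used, with no Salmon version given. The deposited files hold, per transcript, estimated counts and TPM from the authors, with effective lengths, and a deposited table holds the authors' normalized gene signal, with no statement of how it was scaled.

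Estimated counts were summed per gene through GENCODE v29 (GRCh38), which matched 205225 of 226608 transcripts (90.6%), and the unmatched ones held 0.992% to 1.12% of reads. Sums were rounded to whole counts, filtered with filterByExpr, scaled by TMM and tested with edgeR 4.0.16 (robust quasi-likelihood, R 4.3.3, Benjamini-Hochberg over all genes, adjusted p under 0.05). GREM1 was tested with limma 3.58.1 on log2(value + 1) of the deposited signal, over 18239 genes at 5 or more in 3 libraries. DESeq2 1.42.0, voom, no filter, a filter at 2 CPM, the replicate block and leaving out each library were alternatives. Tested on simulated counts, each edgeR, voom and DESeq2 fit gave the right direction for the changed genes, and the share of false calls exceeded the threshold, most in DESeq2.

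Deviations from the group means correlated at 0.204 to 0.345 between libraries with the same replicate number and at -0.254 to 0.0237 between the others. The deviations of a gene cancel within each group, so positive values for the same number by themselves push the other values down. From these data alone the numbers were taken as pairs in the blocked fit, and no label says what a number shares. The main fit uses no block, and the blocked p-values rest on a pairing inferred from the same libraries. Named pathway genes are those called in their list and, of the rest, the 2 with the highest mean CPM. Genes called with the block and the remaining targets are given too. Members and lists were chosen with earlier results of these data known. Counts limit precision for genes with few reads, such as GDF7. No protein sequences were used here.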

Additional observations from a re-analysis of the deposited data

How the results depend on the processing

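BMP2 and BMP7 kept their direction and their call under every alternative run, and BMP4, BMPR1B and BMPR2 stayed short of the threshold in all of theirs. The count of genes called was 344 of 15984 tested, against 1012 of 27439 with no filter, 750 of 15361 with DESeq2 and 211 of 18239 on the deposited values. It was 1300 of 15984 with the replicate block, and 131 of 16566 to 258 of 16696 without 1 library. Members called higher numbered 1, against 3 with no filter, with DESeq2 and with the replicate block, 2 with voom and on the deposited values, and 1 to 2 without 1 library. Members called lower numbered 2, against 1 to 2 without 1 library. With no filter the edgeR adjusted p was far smaller than in the main fit, at 4.6e-41 against 0.000196 for BMP2 and 8.6e-09 against 0.096 for NOG. NOG passed at log2 fold changes of 1.38 with no filter, 1.36 with DESeq2, 1.503 with voom, 1.52 on the deposited values and 1.49 with the replicate block. Without 1 library NOG ranged from 1.06 to 1.86 and passed in 1 of the 6 fits. BMPR1A passed at 0.78 with no filter, 0.76 with DESeq2 and 0.74 with the replicate block. BMP6 lay between -2.18 and -1.71 without 1 library. Pathway genes called higher numbered 5, against 10 with no filter, with DESeq2 and with the replicate block and 3 (without control replicate 2 or 4) to 6 (without ventral midbrain replicate 3) without 1 library; those called lower numbered 2, against 4 with DESeq2, 6 with the replicate block and 1 (without ventral midbrain replicate 4) to 2 without 1 library. BMP1 changed sign at -0.069 on the deposited values and ranged from -0.25 to 0.21 without 1 library, and SMAD5 changed sign at -0.084 on the deposited values. On the deposited values ACVR2A was at -1.40 and passed, and SMAD6 was at 0.67 and did not. GDF7 ranged from 0.62 to 2.58 and GREM1 from 0.13 to 3.20 without 1 library, with GREM1 at 0.66 with a pseudocount of 10, chosen after seeing the data. BMP2 held 80.2% of ventral midbrain ligand reads over all ligands, and GDF7 0.174% by TPM. The cause of these differences was not tested. Beyond the calls named here and in the results, the replicate block changed no other call of a member or named gene. GDF7, at 0 to 19 reads per library, was not tested at the filter of 2 CPM and had no adjusted p in DESeq2.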
